A study of Mus musculus with 9 samples.

Results

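Collagens and small leucine-rich proteoglycans (SLRPs) were followed in bulk RNA sequencing of mouse hippocampus taken at postnatal day 21. A gene was included when its symbol named a collagen chain, or one of the 7 SLRPs Dcn, Lum, Ogn, Fmod, Bgn, Aspn and Omd, and when it reached 0.5 TPM (transcript abundance scaled to transcript length and library total) in at least 3 of the 9 libraries. Of the 23412 symbols listed, 51 had such a name and 46 passed, 39 collagen chains and all 7 SLRPs. The 46 genes comprised 10 fibrillar chains, 6 collagen IV chains of basement membranes, 23 chains of other collagen types and the 7 SLRPs. All of the mice were wild type. In PFOS P1-7, pups nursed from dams gavaged with 1 mg/kg of perfluorooctane sulfonate (PFOS, a persistent fluorinated surfactant) daily while the pups were 1 to 7 days old. In PFOS P8-14 the same daily dose to the dam covered days 8 to 14, and control animals were sham treated. Each group had 3 libraries, and the stated question was which of the 2 nursing periods is the more sensitive one for the developing brain. No label ties a library to an animal, a litter, a sex or a date, so p-values measure the spread between libraries, which may be partly technical.

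Collagens are extracellular matrix proteins whose chains wind around each other into a helix. Fibrillar collagens assemble into tensile fibrils, collagen IV forms the sheet-like network of basement membranes, and SLRPs bind fibrils and set their spacing and diameter. In brain, fibrillar collagens and SLRPs are known mainly from fibroblasts of the meninges and of vessel walls, and collagen IV from endothelial cells and pericytes, while a few transmembrane and fibril-associated collagens are made by neurons.

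Before the comparisons, 2 features of the libraries bear on the collagens. Ttr, the transthyretin gene that marks choroid plexus epithelium, was at 11626, 39.6 and 10042 TPM in PFOS P1-7 libraries 1 to 3, at 9446, 9864 and 108 TPM in PFOS P8-14 libraries 1 to 3, and at 52.8, 35.1 and 10420 TPM in control libraries 1 to 3. Thus 5 libraries held Ttr at over 1000 TPM, of which 2 were PFOS P1-7, 2 PFOS P8-14 and 1 control. All 13 other choroid plexus markers listed were higher in each of those 5 libraries than in any of the other 4, and the summed list ranged over 66.0 to 12023 TPM in PFOS P1-7, 132 to 10130 TPM in PFOS P8-14 and 53.2 to 10610 TPM in control. The second feature is PFOS P8-14 library 1, which held the highest value of 26 of the 46 genes (56.5%), against 16.7% of the 15157 symbols tested, and the lowest value of 0, against 8.91%. Prox1, a transcription factor of dentate granule neurons that marks the labelled tissue, was at 45.7, 51.5 and 46.0 TPM in PFOS P1-7, 47.3, 40.2 and 48.4 TPM in PFOS P8-14 and 49.7, 27.4 and 17.1 TPM in control, so it was present in all 9 libraries and lowest in control library 3. It is 1 of 10 hippocampal principal neuron markers listed, of which 6 were higher and 4 lower in PFOS P1-7 against control. Their summed TPM was 878 to 951 in control, with control library 3 the highest of that group. By the median deviation of log2(TPM + 1) from the mean of 9 libraries, control library 3 was the lowest at -0.23. In bulk tissue, fewer cells of a type and less RNA per cell cannot be told apart, and this holds for every level given here. The deposited values carry no sequencing depth.

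**Figure D1:**
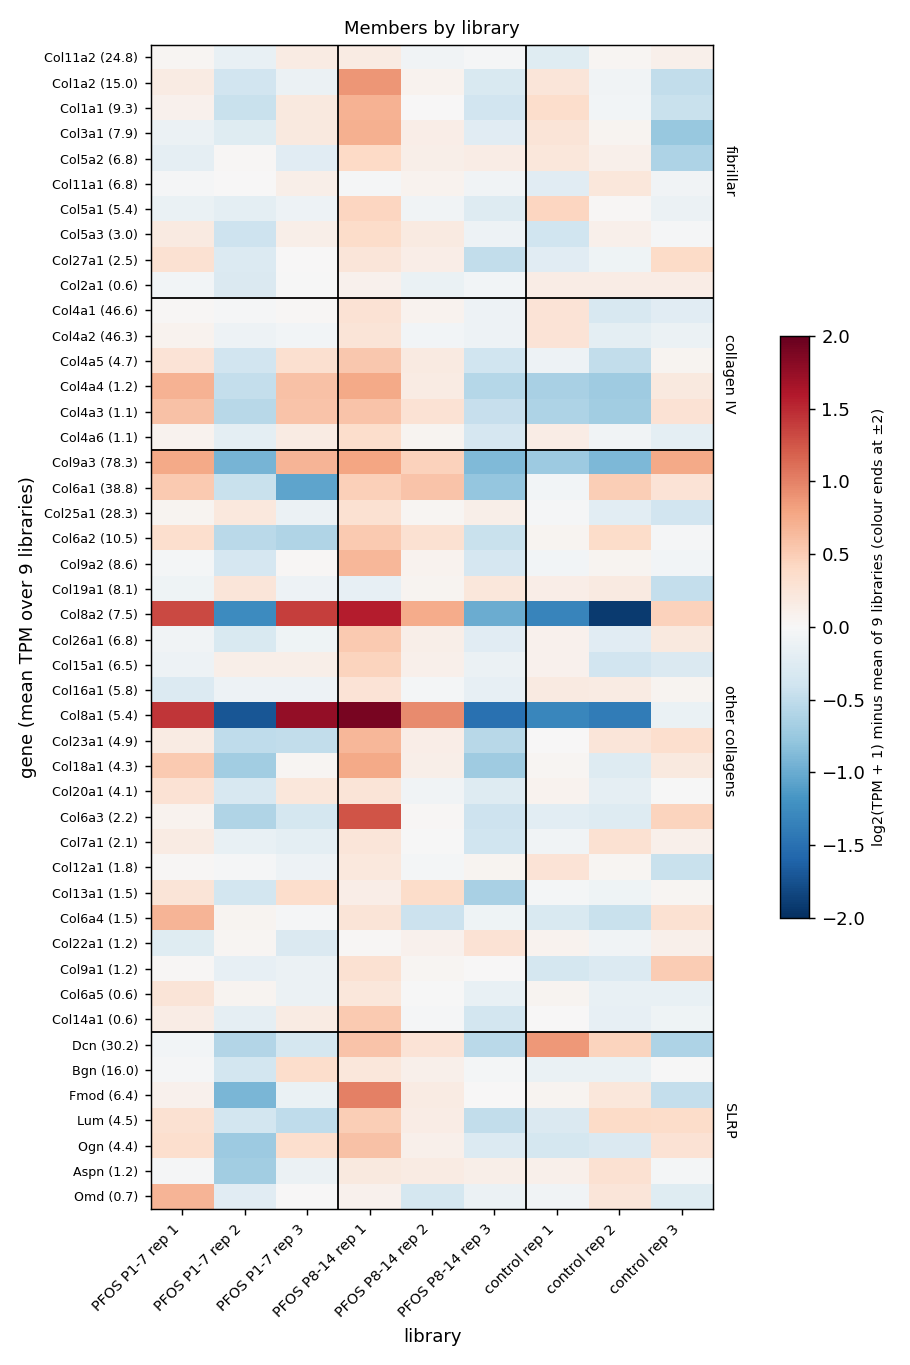
Colour shows log2(TPM + 1) of each of the 46 genes (rows, with the mean TPM over the 9 libraries in brackets) minus that gene's mean over the 9 libraries (columns). PFOS P8-14 library 1 is the darkest column of red, holding the highest value of 26 genes, and Col8a1 and Col8a2 are the rows with the widest spread.

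The fibrillar chains were present at moderate levels. Col11a2, a chain of the minor fibrillar collagen XI, was the most abundant of them at a mean of 24.8 TPM over the 9 libraries, and ranged only over 20.7 to 27.7 TPM. Col1a2, which encodes the second chain of collagen I, was at 16.2, 10.8 and 13.2 TPM in PFOS P1-7, 27.3, 15.2 and 11.5 TPM in PFOS P8-14 and 17.2, 13.7 and 9.97 TPM in control. Its partner Col1a1 was at 9.59, 6.36 and 10.4 TPM in PFOS P1-7, 15.2, 9.06 and 6.69 TPM in PFOS P8-14 and 11.8, 8.67 and 6.32 TPM in control. The groups overlapped for both chains, and the highest value of each was PFOS P8-14 library 1. Collagen I protein holds more Col1a1 chains than Col1a2 chains. The ratio of Col1a2 to Col1a1 TPM was between 1.27 and 1.80 in all 9 libraries. That ratio depends on the transcript lengths of an annotation that is not given, and does not measure chains in protein. Col3a1, which forms mixed fibrils with collagen I in soft tissue, averaged 7.36 ± 1.33 TPM in PFOS P1-7, 9.28 ± 3.44 TPM in PFOS P8-14 and 7.13 ± 2.73 TPM in control (SD, n = 3 each). Col5a1, a chain of the collagen V that starts collagen I fibrils, averaged 4.71 ± 0.17 TPM in PFOS P1-7, 5.57 ± 1.71 TPM in PFOS P8-14 and 5.89 ± 1.40 TPM in control (SD, n = 3 each). Col2a1, the cartilage fibril chain, lay just above the filter at a mean of 0.60 TPM. The remaining fibrillar chains Col11a1, Col5a3 and Col27a1 had means of 6.79, 2.97 and 2.45 TPM over the 9 libraries.

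Collagen IV was dominated by Col4a1 and Col4a2, whose chains form the network found in the basement membrane of nearly every vessel. Col4a1 was at 47.0, 45.5 and 46.8 TPM in PFOS P1-7, 56.5, 48.5 and 42.8 TPM in PFOS P8-14 and 56.1, 36.6 and 39.5 TPM in control. Col4a2 was at 48.5, 43.0 and 44.2 TPM in PFOS P1-7, 55.2, 44.3 and 43.0 TPM in PFOS P8-14 and 55.8, 40.0 and 42.6 TPM in control. The groups overlapped for both, and the ratio of Col4a1 to Col4a2 stayed between 0.914 and 1.09 in all 9 libraries. The pair lies head to head on chromosome 8, and in the RefSeq annotation the gene spans overlap by 85 bases. How the authors' counting used strand is not given in the sources used here, so reads from the overlap could be assigned to either gene. Col4a3 and Col4a4, chains of the kidney filter's basement membrane together with Col4a5, also lie head to head, on chromosome 1, overlap by 114 bases and carry the same uncertainty. Col4a3 was at 1.98, 0.35 and 1.95 TPM in PFOS P1-7, 1.96, 1.43 and 0.44 TPM in PFOS P8-14 and 0.30, 0.23 and 1.43 TPM in control. Col4a4 was at 2.25, 0.44 and 2.02 TPM in PFOS P1-7, 2.41, 1.26 and 0.36 TPM in PFOS P8-14 and 0.28, 0.23 and 1.29 TPM in control. Both genes were high in the same 5 libraries, those with high Ttr. Col4a5 averaged 4.98 ± 1.5 TPM in PFOS P1-7, 5.22 ± 1.94 TPM in PFOS P8-14 and 3.98 ± 0.91 TPM in control (SD, n = 3 each), and its X-linked neighbour Col4a6, the last of the 6 chains, averaged 1.07 ± 0.26 TPM in PFOS P1-7, 1.12 ± 0.50 TPM in PFOS P8-14 and 1.00 ± 0.25 TPM in control (SD, n = 3 each).

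Promoter windows are shown for genes that moved together across libraries, the Col4a1 and Col4a2 pair and the chains Col4a4, Col8a1 and Col8a2. Each covers 250 bases before to 50 bases after a transcription start in RefSeq on build GRCm38.p6, written 5′ to 3′ on the gene's own strand. Capitals mark GC boxes (GGGCGG or, on the other strand, CCGCCC) and CCAAT boxes (CCAAT or ATTGG). The windows are chr8:11312777-11313076 on the minus strand for Col4a1, chr8:11312555-11312854 on the plus strand for Col4a2, chr1:82586800-82587099 on the minus strand for Col4a4, chr16:57754688-57754987 on the minus strand for Col8a1 and chr4:126286544-126286843 on the plus strand for Col8a2. The start used was the outer end of the RefSeq gene span for Col4a2, Col8a1 and Col8a2, and lay 63 bases inside the span for Col4a1 and 185 bases inside it for Col4a4.
Col4a1: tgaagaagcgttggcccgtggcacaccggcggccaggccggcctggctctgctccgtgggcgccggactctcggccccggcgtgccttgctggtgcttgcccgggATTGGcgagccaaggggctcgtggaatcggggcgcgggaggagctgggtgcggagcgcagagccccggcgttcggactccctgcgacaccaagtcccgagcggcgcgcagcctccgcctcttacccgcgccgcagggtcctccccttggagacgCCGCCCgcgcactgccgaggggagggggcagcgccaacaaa
Col4a2: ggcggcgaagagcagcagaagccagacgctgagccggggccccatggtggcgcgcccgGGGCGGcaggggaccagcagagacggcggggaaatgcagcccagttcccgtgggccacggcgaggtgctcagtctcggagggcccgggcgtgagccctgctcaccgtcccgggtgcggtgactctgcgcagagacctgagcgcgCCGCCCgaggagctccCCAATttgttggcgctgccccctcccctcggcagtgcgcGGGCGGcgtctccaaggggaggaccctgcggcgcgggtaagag
Col4a4: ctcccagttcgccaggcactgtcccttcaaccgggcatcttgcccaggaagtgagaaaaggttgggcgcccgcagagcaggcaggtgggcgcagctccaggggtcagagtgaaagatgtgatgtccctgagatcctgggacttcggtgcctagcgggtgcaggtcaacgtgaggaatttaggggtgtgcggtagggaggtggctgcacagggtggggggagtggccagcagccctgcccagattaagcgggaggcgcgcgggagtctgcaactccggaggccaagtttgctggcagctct
Col8a1: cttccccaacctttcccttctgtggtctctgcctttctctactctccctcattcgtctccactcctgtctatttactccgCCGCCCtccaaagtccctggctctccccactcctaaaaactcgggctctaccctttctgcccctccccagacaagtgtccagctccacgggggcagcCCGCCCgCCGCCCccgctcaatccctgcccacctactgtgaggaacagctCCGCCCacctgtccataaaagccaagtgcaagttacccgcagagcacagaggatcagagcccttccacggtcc
Col8a2: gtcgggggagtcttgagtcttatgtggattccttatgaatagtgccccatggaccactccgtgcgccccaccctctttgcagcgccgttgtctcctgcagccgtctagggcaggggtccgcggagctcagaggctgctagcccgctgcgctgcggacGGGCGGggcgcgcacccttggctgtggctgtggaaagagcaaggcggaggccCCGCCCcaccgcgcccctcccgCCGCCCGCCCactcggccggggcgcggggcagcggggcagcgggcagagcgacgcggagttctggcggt
The Col4a1 and Col4a2 windows share 78 bases, read in opposite directions, so that a GC box in the shared stretch appears in both. Col4a1 held 1 GC box and 1 CCAAT box, Col4a2 held 3 and 1, Col8a1 and Col8a2 held 4 GC boxes each and no CCAAT box, and Col4a4 held none of either. In Col8a2, 2 of the GC-box matches share bases. Over all 32851 promoter windows of that length, 35.7% held a GC box and 37.4% a CCAAT box. Windows were found for 35 of the 46 genes, 38 in number, and of these 60.5% held a GC box and 36.8% a CCAAT box. A TATA box (TATAAA or TTTATA) was in 13.6% of all windows and 13.2% of the 38. A match is a run of letters and does not show that a factor binds there.

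Among the other collagen types, Col9a3 was the most abundant of all 46 genes, at a mean of 78.3 TPM. It encodes a chain of collagen IX, a fibril-associated (FACIT) collagen known from the surface of cartilage fibrils. Col6a1, a chain of the beaded-filament collagen VI, had a mean of 38.8 TPM, and Col25a1, a neuronal transmembrane collagen whose shed part occurs in human amyloid plaques, had 28.3 TPM. Col6a1 was at 52.1, 26.1 and 16.7 TPM in PFOS P1-7, 50.5, 54.0 and 20.5 TPM in PFOS P8-14 and 34.7, 50.8 and 43.6 TPM in control, and the groups overlapped. Col6a2, its partner chain, averaged 8.67 ± 3.77 TPM in PFOS P1-7, 11.6 ± 4.04 TPM in PFOS P8-14 and 11.2 ± 1.80 TPM in control, and Col6a3, the largest chain, averaged 1.43 ± 0.58 TPM in PFOS P1-7, 3.06 ± 2.58 TPM in PFOS P8-14 and 1.99 ± 0.87 TPM in control (SD, n = 3 each). The ratio of Col6a1 to Col6a2 was between 2.63 and 4.41. Of the multiplexins, basement membrane proteoglycan-like collagens, Col15a1 averaged 6.70 ± 0.65 TPM in PFOS P1-7, 7.31 ± 1.65 TPM in PFOS P8-14 and 5.57 ± 1.16 TPM in control, and Col18a1, the source of endostatin, averaged 4.13 ± 2.06 TPM in PFOS P1-7, 4.64 ± 2.70 TPM in PFOS P8-14 and 4.02 ± 0.79 TPM in control (SD, n = 3 each). Col26a1 had a mean of 6.76 TPM over the 9 libraries, and Col9a2, a partner of Col9a3, 8.58 TPM. The low-level chains Col23a1, Col20a1, Col7a1, Col12a1, Col13a1, Col6a4, Col22a1, Col9a1, Col6a5 and Col14a1 had means of 0.58 to 4.87 TPM.

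Among the SLRPs, Dcn (decorin, which binds collagen I fibrils) was the most abundant. Dcn was at 27.2, 18.4 and 21.9 TPM in PFOS P1-7, 42.2, 34.4 and 19.1 TPM in PFOS P8-14 and 52.0, 38.5 and 17.9 TPM in control, so that its groups overlapped and control held both the highest and the lowest value. Bgn, the decorin relative biglycan, averaged 16.1 ± 4.16 TPM in PFOS P1-7, 17.1 ± 1.64 TPM in PFOS P8-14 and 14.9 ± 0.81 TPM in control (SD, n = 3 each). Lum, the gene of lumican, averaged 3.77 ± 1.51 TPM in PFOS P1-7, 4.66 ± 1.84 TPM in PFOS P8-14 and 5.01 ± 1.47 TPM in control, and Ogn, the gene of osteoglycin, averaged 4.39 ± 1.98 TPM in PFOS P1-7, 4.85 ± 1.77 TPM in PFOS P8-14 and 3.88 ± 1.26 TPM in control (SD, n = 3 each). Omd, the gene of osteomodulin, was at 1.71 TPM in PFOS P1-7 library 1 and at 0.33 to 0.99 TPM in the other 8 libraries. The order of the SLRPs by mean level was Dcn, Bgn, Fmod, Lum, Ogn, Aspn and Omd, and Lum (4.48 TPM) and Ogn (4.37 TPM), neighbours in that order, differed by less than the spread between libraries.

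The 4 genes just inside the 0.5 TPM rule were Col14a1, Col6a5, Col4a3 and Col4a4, each at or over it in 5 libraries. Just outside were Col24a1 and Col28a1 with 2 libraries each, while Col10a1, Col17a1 and Col6a6 reached it in 0 libraries. Col24a1, a fibrillar chain, was at 0.15, 0.30 and 0.23 TPM in PFOS P1-7, 0.33, 0.34 and 0.28 TPM in PFOS P8-14 and 0.85, 0.50 and 0.15 TPM in control. The 5 genes outside the rule were not tested.

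In PFOS P1-7 against control, 0 of the 46 genes passed an adjusted p of 0.05 in limma's test on log2(TPM + 1), and the background was also 0% of the 15157 symbols tested. At an unadjusted p under 0.05, 0 of the 46 were higher, where the background was 12%, and 0 were lower, where it was 5.59%. The groups did not overlap, with PFOS P1-7 lower, for 2 genes, Col16a1 and Col2a1 (background 6.43%), and with PFOS P1-7 higher for 0 (background 11.9%). The median log2 difference was -0.01 for the fibrillar chains (4 higher, 6 lower), 0.17 for collagen IV (5 higher, 1 lower), 0.01 for the other collagens (12 higher, 11 lower) and -0.26 for the SLRPs (3 higher, 4 lower), beside 0.08 for all symbols tested, of which 65% were higher. PFOS P1-7 library 2 held the lowest value of 12 of the 46 genes (26.1%, against 7.51% of all symbols tested). Without that library the SLRP median was 0.038 and that of the fibrillar chains 0.13, beside 0.08 for all symbols. Without control library 3 the fibrillar median was -0.21, and without PFOS P1-7 library 1 the SLRP median was -0.46. Leaving out 1 library at a time, the collagen IV median ranged over 0.06 (without control library 2) to 0.31 (without PFOS P1-7 library 2). Within collagen IV the log2 differences were largest for Col4a4 (0.66) and Col4a3 (0.54), which reached 0.5 TPM only in libraries with high Ttr. Those of the other chains were 0.25 (Col4a5, also higher in every high-Ttr library), 0.10 (Col4a1), 0.05 (Col4a6) and -0.01 (Col4a2).

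The genes with the smallest p in that comparison did not pass the threshold. Col16a1, a FACIT collagen on chromosome 4 (130047817 to 130099277, GRCm38.p6), was at 4.64, 5.30 and 5.36 TPM in PFOS P1-7 and 6.70, 6.61 and 6.06 TPM in control, giving a log2 difference of -0.29 (SE 0.14, limma adjusted p = 0.303). Every PFOS P1-7 library was below every control library. Aspn, asporin, an SLRP that binds collagen and TGF-beta and lies on chromosome 13 (49544443 to 49567565), was at 1.17, 0.37 and 1.04 TPM in PFOS P1-7 and 1.38, 1.72 and 1.15 TPM in control, giving a log2 difference of -0.40 (SE 0.19, limma adjusted p = 0.309), and PFOS P1-7 library 2 was the lowest. Without that library the difference was -0.19. Col25a1 was at 29.0, 32.5 and 25.8 TPM in PFOS P1-7 and 27.6, 24.2 and 21.2 TPM in control, giving a log2 difference of 0.25 (SE 0.12, limma adjusted p = 0.316), with overlapping groups. Col2a1 was at 0.53, 0.30 and 0.59 TPM in PFOS P1-7 and 0.77, 0.76 and 0.77 TPM in control, giving a log2 difference of -0.27 (SE 0.15, limma adjusted p = 0.363). Its groups did not overlap, at levels close to the filter, where log2(TPM + 1) understates a change.

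**Figure D2:**
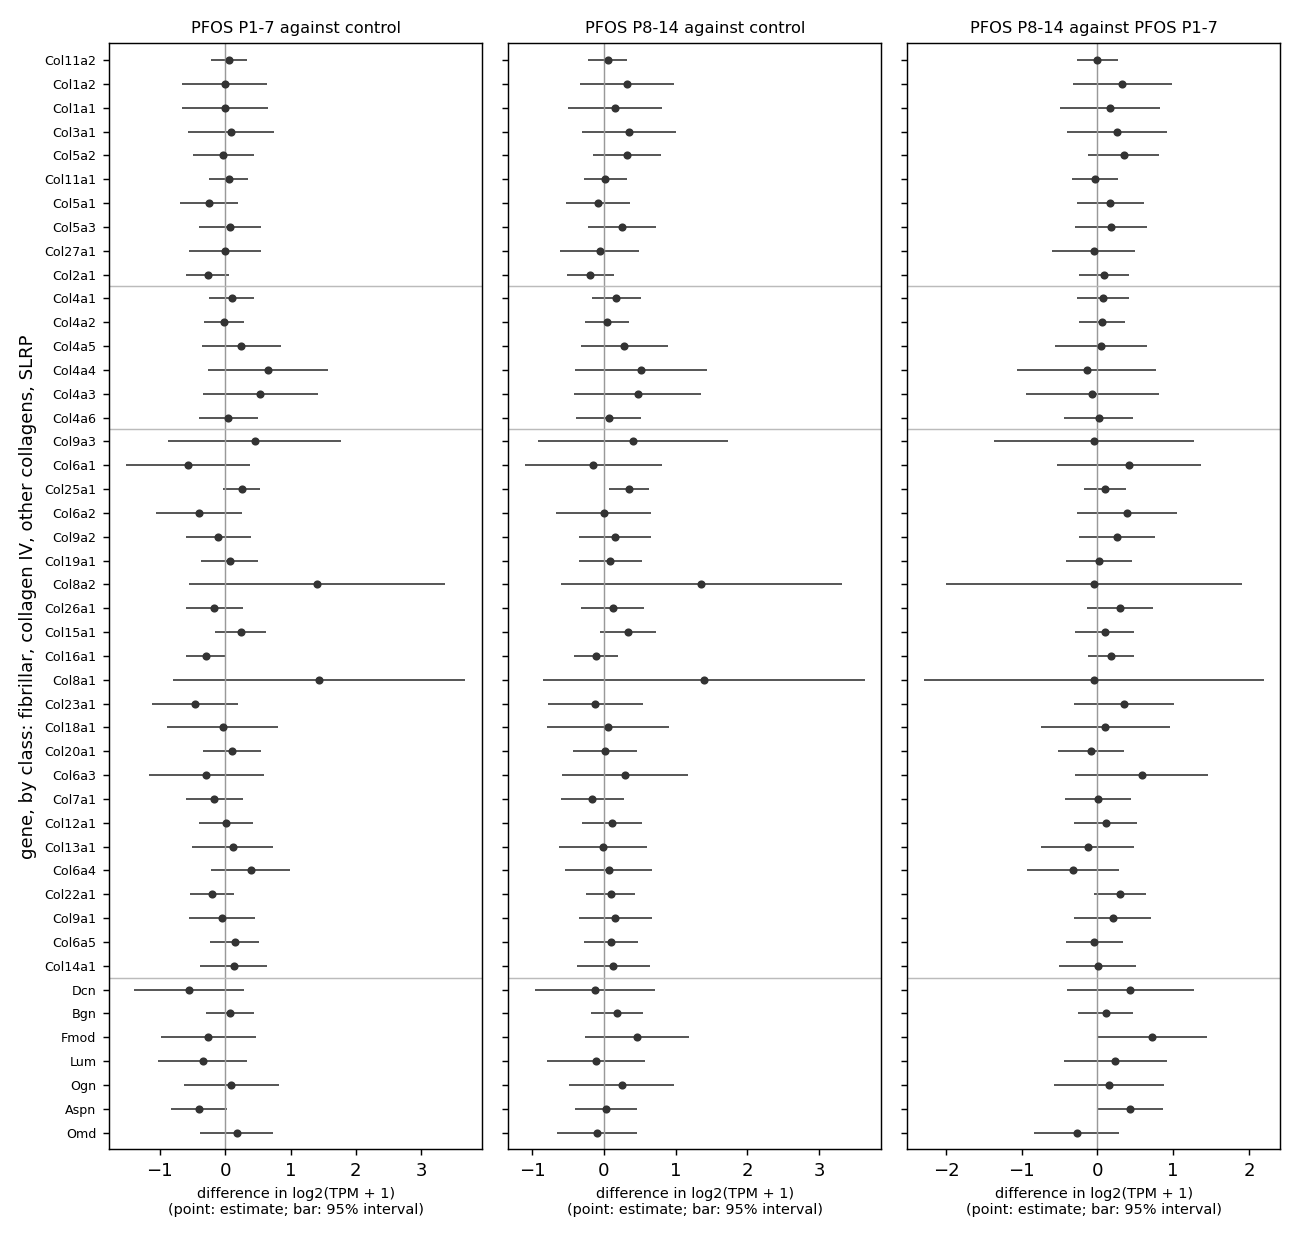
Points are differences in log2(TPM + 1) for each of the 46 genes (rows, in 4 classes separated by lines) and bars their 95% confidence intervals, for PFOS P1-7 against control, PFOS P8-14 against control and PFOS P8-14 against PFOS P1-7. All intervals cross 0 except those of Col25a1 in the middle panel and Aspn in the right panel, and those of Col8a1 and Col8a2 are the widest.

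In PFOS P8-14 against control, limma again passed 0 of the 46 genes (background 0%). At an unadjusted p under 0.05, 1 gene, Col25a1, was higher (background 6.06%) and 0 were lower (background 4.47%). Col25a1 was also the 1 gene whose PFOS P8-14 libraries were all above control (background 7.27%), and Col2a1 the 1 whose PFOS P8-14 libraries were all below it (background 5.83%). The median log2 difference was 0.11 for the fibrillar chains (7 higher, 3 lower), 0.23 for collagen IV (6 higher, 0 lower), 0.10 for the other collagens (17 higher, 6 lower) and 0.03 for the SLRPs (4 higher, 3 lower), beside 0.06 for all symbols tested, of which 61.8% were higher. Over all 46 genes it was 0.11 (34 higher, 12 lower). Without PFOS P8-14 library 1 the median over the 46 genes was -0.01 (22 higher, 24 lower), beside 0.04 for all symbols. By class it was then -0.01 for the fibrillar chains (4 higher, 6 lower), 0.07 for collagen IV (4 higher, 2 lower), -0.11 for the other collagens (10 higher, 13 lower) and 0.02 for the SLRPs (4 higher, 3 lower). With all libraries, the largest collagen IV differences were those of Col4a4 (0.51) and Col4a3 (0.47), which reached 0.5 TPM only in libraries with high Ttr. Those of the other chains were 0.29 (Col4a5, also higher in every high-Ttr library), 0.17 (Col4a1), 0.07 (Col4a6) and 0.05 (Col4a2).

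Col25a1 lies on chromosome 3 (130180358 to 130599884, GRCm38.p6). It was at 34.8, 28.9 and 30.4 TPM in PFOS P8-14 and 27.6, 24.2 and 21.2 TPM in control, giving a log2 difference of 0.36 (SE 0.12, unadjusted p = 0.0171, limma adjusted p = 0.445). Every PFOS P8-14 library exceeded every control library, the closest pair being 28.9 and 27.6 TPM. In the moderated F test over the 3 groups it was the 1 gene of the 46 with an unadjusted p under 0.05 (background 10.9%), and its limma adjusted p there was 0.455. Leaving out control library 1 brought its adjusted p against control to 0.0483, at a log2 difference of 0.45, in a fit that called 10.9% of all symbols. Without control library 3, where Col25a1 was lowest, the log2 difference was 0.27. Over the 22 alternative settings that adjusted p ranged over 0.0483 to 0.895.

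Of the next genes in that comparison, Col15a1 was at 9.09, 7.00 and 5.84 TPM in PFOS P8-14 and 6.89, 4.72 and 5.11 TPM in control, giving a log2 difference of 0.33 (SE 0.18, limma adjusted p = 0.493), with overlapping groups. Without PFOS P8-14 library 1 it was 0.18. Col5a2, the second chain of collagen V, was at 9.09, 7.35 and 7.54 TPM in PFOS P8-14 and 7.96, 7.23 and 3.98 TPM in control, giving a log2 difference of 0.32 (SE 0.21, limma adjusted p = 0.548). Without control library 3, the lowest of the 9, it was 0.06. Fmod, fibromodulin, an SLRP that guides fibril thickening in tendon, was at 13.1, 6.81 and 5.98 TPM in PFOS P8-14 and 6.22, 7.11 and 4.02 TPM in control, giving a log2 difference of 0.46 (SE 0.33, limma adjusted p = 0.569). Without PFOS P8-14 library 1, the highest, it was 0.15.

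**Figure D3:**
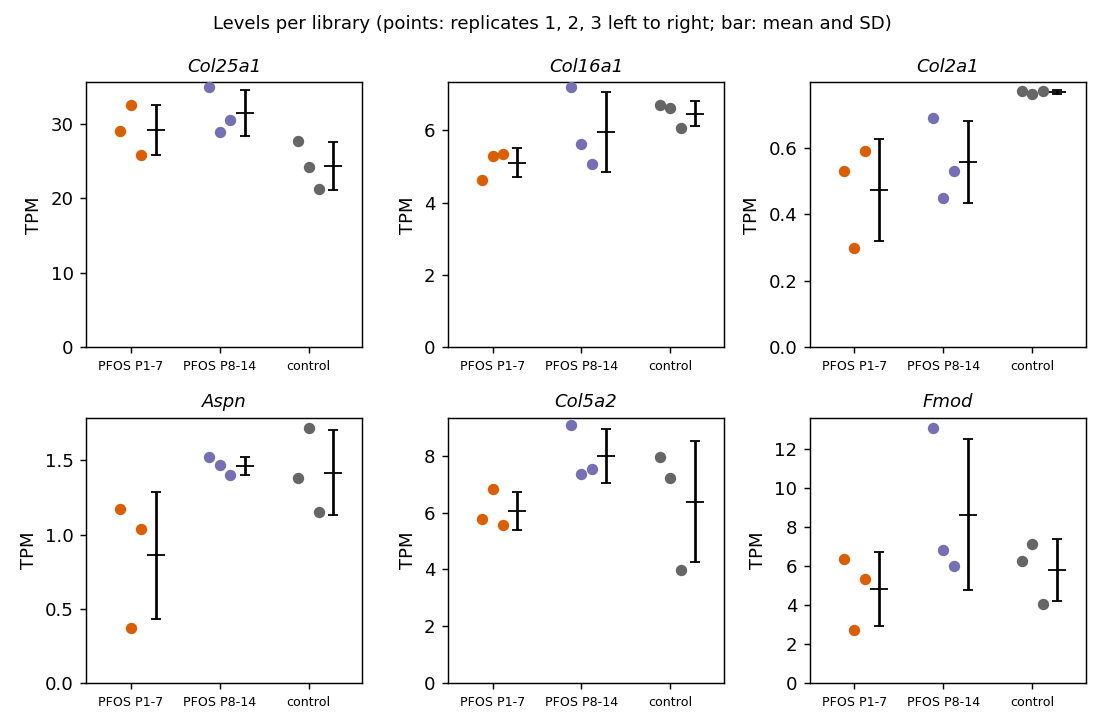
TPM of Col25a1, Col16a1, Col2a1, Aspn, Col5a2 and Fmod in PFOS P1-7, PFOS P8-14 and control libraries (points are replicates 1 to 3 from left to right, bars the mean and SD, n = 3). Every Col25a1 value in PFOS P8-14, 28.9 TPM or more, lies above the control values, and PFOS P1-7 library 2 is the lowest Aspn value at 0.37 TPM.

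The direct comparison of the nursing periods, PFOS P8-14 against PFOS P1-7, also passed 0 of the 46 genes in limma (background 0%). At an unadjusted p under 0.05, 1 gene, Aspn, was higher (background 0.541%) and 0 were lower (background 0.666%). The groups did not overlap for 2 genes, Aspn and Col5a2, both higher in PFOS P8-14 (background 2.01%), and for 0 genes with PFOS P8-14 lower (background 4.11%). Of the 46 genes 33 were higher and 13 lower, with a median log2 difference of 0.10, beside -0.03 for all symbols tested, of which 39.5% were higher. By class the median was 0.17 for the fibrillar chains (7 higher, 3 lower), 0.03 for collagen IV (4 higher, 2 lower), 0.10 for the other collagens (16 higher, 7 lower) and 0.24 for the SLRPs (6 higher, 1 lower). Without PFOS P8-14 library 1 the median over the 46 genes was -0.03 (20 higher, 26 lower), beside -0.04 for all symbols. It was then -0.01 for the fibrillar chains, -0.16 for collagen IV, -0.01 for the other collagens and 0.04 for the SLRPs. Without PFOS P1-7 library 2 the median over the 46 genes was 0.01, beside -0.02 for all symbols. That of the fibrillar chains was then -0.01 and that of collagen IV -0.14.

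Aspn was at 1.52, 1.47 and 1.40 TPM in PFOS P8-14 and 1.17, 0.37 and 1.04 TPM in PFOS P1-7, giving a log2 difference of 0.43 (SE 0.19, unadjusted p = 0.0489, limma adjusted p = 1). Each PFOS P8-14 library was above each PFOS P1-7 library, and without PFOS P1-7 library 2 the difference was 0.23. Fmod was at 13.1, 6.81 and 5.98 TPM in PFOS P8-14 and 6.36, 2.69 and 5.33 TPM in PFOS P1-7, giving a log2 difference of 0.72 (SE 0.33, limma adjusted p = 1), with overlapping groups. Without PFOS P8-14 library 1 it was 0.41. Col22a1, a FACIT collagen of tissue junctions, was at 1.24, 1.33 and 1.68 TPM in PFOS P8-14 and 0.85, 1.26 and 0.80 TPM in PFOS P1-7, giving a log2 difference of 0.30 (SE 0.15, limma adjusted p = 1). Col5a2 was at 9.09, 7.35 and 7.54 TPM in PFOS P8-14 and 5.76, 6.83 and 5.58 TPM in PFOS P1-7, giving a log2 difference of 0.35 (SE 0.21, limma adjusted p = 1). Col26a1 was at 10, 7.29 and 5.51 TPM in PFOS P8-14 and 6.28, 5.18 and 6.20 TPM in PFOS P1-7, giving a log2 difference of 0.29 (SE 0.19, limma adjusted p = 1), and without PFOS P8-14 library 1 it was 0.10.

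Markers of fibroblasts, the main known source of fibrillar collagens and SLRPs, were read beside them. Slc6a13, a transporter of meningeal and perivascular fibroblasts, was at 8.75, 6.84 and 8.75 TPM in PFOS P1-7, 12.5, 9.34 and 8.91 TPM in PFOS P8-14 and 9.39, 11.0 and 4.91 TPM in control. It was highest in PFOS P8-14 library 1, as were 6 of the 10 fibrillar chains and 3 of the 7 SLRPs, where the background was 16.7% of all symbols tested. The same library was the highest for 26 of all 46 genes, among them Col4a1, Col4a4, Col4a5 and Col4a6. A peak there was thus not particular to fibrillar chains and SLRPs. The summed TPM of the 11 fibroblast markers tested ranged over 65.5 to 200 in PFOS P1-7, 87.5 to 237 in PFOS P8-14 and 92.3 to 133 in control, with PFOS P8-14 library 1 the highest and PFOS P1-7 library 2 the lowest. Igf2, which was at 38.6 to 161 TPM over the 9 libraries and high where Ttr was high, carried the larger share of that sum. By the median deviation of log2(TPM + 1) over the 11 markers, PFOS P8-14 library 1 was again the highest at 0.64, but control library 3 was the lowest at -0.30, beside -0.24 in PFOS P1-7 library 2. Control library 3 held the lowest value of 7 of the 11 markers. Against control, all 11 had a positive log2 difference in PFOS P8-14 (median 0.30, beside 0.06 for all symbols tested). Against PFOS P1-7 all 11 did so too (median 0.25, beside -0.03). Of all symbols tested, 61.8% and 39.5% were higher in those 2 comparisons. Of the 11 markers 0 passed (smallest limma adjusted p 0.493 and 1). Slc13a4 of that list, at 2.37 to 25.5 TPM, was also high where Ttr was high. The part of fibroblast content in the collagen differences was not tested.

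**Figure D4:**
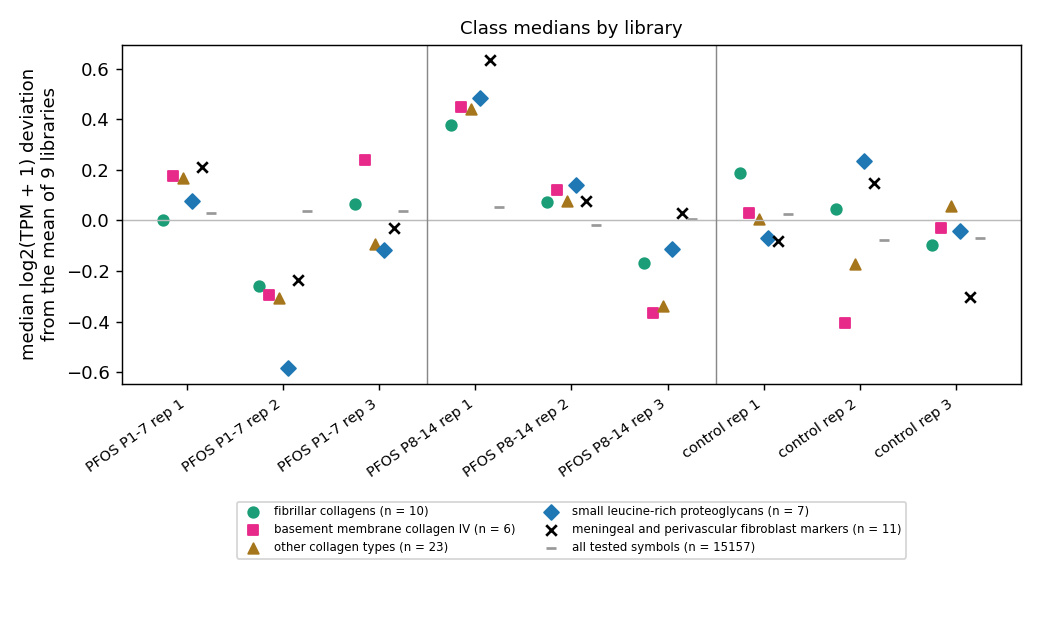
For each library (x axis) the median deviation of log2(TPM + 1) from the mean of 9 libraries is given for the 4 gene classes, for 11 fibroblast markers and for all symbols tested. The fibroblast markers stand at 0.64 in PFOS P8-14 library 1, their highest point, where the 4 classes also lie high.

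The collagens with the widest spread between libraries, Col8a1 and Col8a2, were high where Ttr was high. Of the 46 genes, 10 were higher in each of the 5 high-Ttr libraries than in any of the other 4 (21.7%, background 4.17%), namely Bgn, Col13a1, Col27a1, Col4a3, Col4a4, Col4a5, Col8a1, Col8a2, Col9a3 and Ogn. Of these, Col4a3 and Col4a4 reached 0.5 TPM in no library of low Ttr and so entered the 46 only through the libraries where they were high, which leaves 8 of the other 44 genes. These counts describe the 9 libraries and were not tested. Just 1, Col19a1, was lower in each of them (background 0.805%). Col8a2, a chain of the short-chain collagen VIII of Descemet's membrane in the cornea, was at 13.9, 1.52 and 14.7 TPM in PFOS P1-7, 16.8, 8.99 and 2.02 TPM in PFOS P8-14 and 1.40, 0.60 and 7.28 TPM in control. Col8a1, its partner, was at 10.02, 0.25 and 12.9 TPM in PFOS P1-7, 14.2, 6.88 and 0.45 TPM in PFOS P8-14 and 0.66, 0.55 and 2.73 TPM in control. For both genes the groups overlapped, and the libraries that were low were PFOS P1-7 library 2, PFOS P8-14 library 3 and control libraries 1 and 2. Col9a3 was at 116, 35.4 and 110 TPM in PFOS P1-7, 118, 94.2 and 36.6 TPM in PFOS P8-14 and 41.1, 36.1 and 117 TPM in control. It took 94.2 to 118 TPM in the 5 high-Ttr libraries and 35.4 to 41.1 TPM in the other 4. Col19a1, a FACIT collagen that mouse hippocampal interneurons make and need for synapse formation, took 5.43 to 8.31 TPM in the 5 and 8.82 to 9.62 TPM in the other 4.

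**Figure D5:**
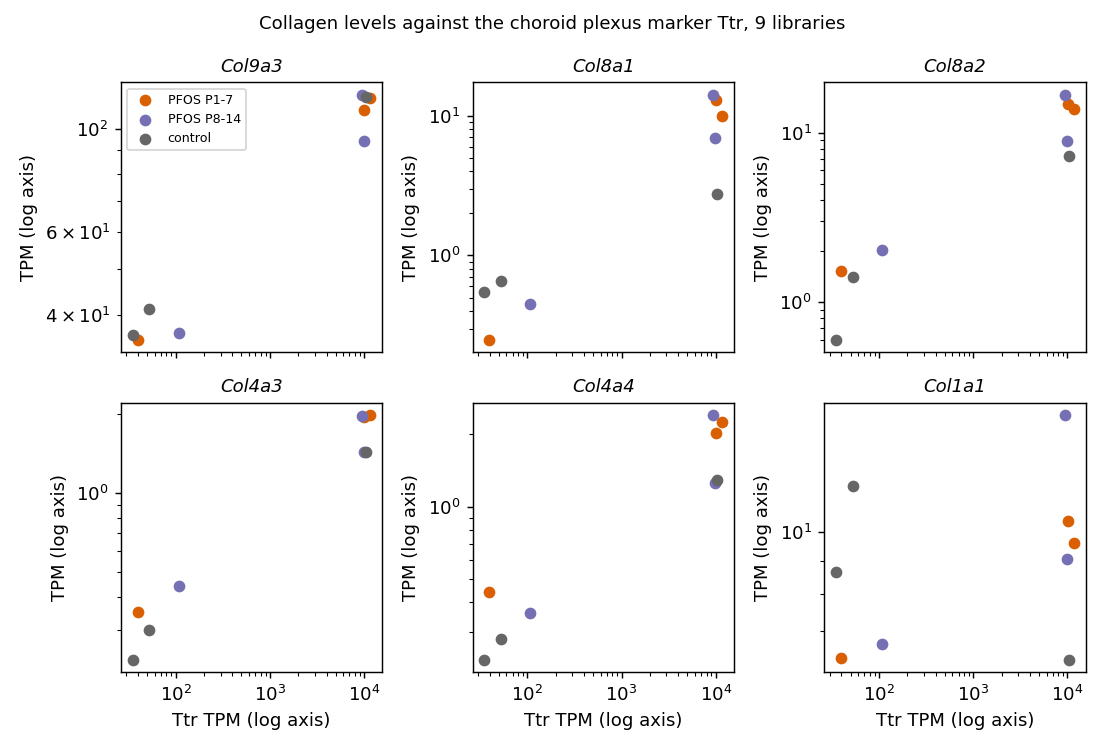
TPM of Col9a3, Col8a1, Col8a2, Col4a3, Col4a4 and Col1a1 (y axes, log) against Ttr TPM (x axis, log) in the 9 libraries, coloured by group. For Col9a3 the 4 libraries with low Ttr lie at 35.4 to 41.1 TPM and the other 5 at 94.2 to 118 TPM, whereas the Col1a1 values of the libraries with low Ttr, 6.36 to 11.8 TPM, fall inside the range of the others.

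High Ttr was found in 2 of 3 libraries of each PFOS group and in 1 of 3 control libraries. In 1 alternative fit a choroid plexus score was added, the mean log2(TPM + 1) of the listed choroid plexus markers, Ttr among them. The log2 differences against control of the genes that were high where Ttr was high then changed. The part of choroid plexus content in those differences was not tested. Col8a2 had a difference of 1.40 (SE 0.87, limma adjusted p = 0.405) in PFOS P1-7 against control and 1.36 (SE 0.87, limma adjusted p = 0.545) in PFOS P8-14 against control, which became 0.28 and 0.33 with the score. For Col8a1 the difference of 1.44 in PFOS P1-7 became 0.19 and that of 1.39 in PFOS P8-14 became 0.24. For Col4a3, which entered the 46 only through high-Ttr libraries, the difference of 0.54 in PFOS P1-7 became 0.05. That of 0.47 in PFOS P8-14 became 0.02. Col9a3 changed sign, its difference of 0.45 in PFOS P1-7 becoming -0.31 (limma adjusted p = 0.144) and that of 0.41 in PFOS P8-14 becoming -0.30 (limma adjusted p = 0.286). Col8a1, Col8a2, Col4a3 and Col9a3 had already been seen to split by Ttr in these libraries, as had Col4a4, Col4a5, Bgn, Ogn, Col13a1 and Col27a1. A change in their differences with the score was thus fixed in advance. Each of the classes holds some of these genes, so a change in the medians given below was partly fixed in advance as well. Nothing about a cause is read from any of these changes. Col25a1 had differences of 0.32 in PFOS P1-7 (limma adjusted p = 0.197) and 0.42 in PFOS P8-14 (limma adjusted p = 0.286) with the score. Over all 46 genes the median with the score was -0.11 (15 higher, 31 lower) in PFOS P1-7 against control, beside 0.08 for all symbols, and -0.02 (22 higher, 24 lower) in PFOS P8-14 against control, beside 0.05. For collagen IV it was -0.001 (3 higher, 3 lower) in PFOS P1-7 and 0.02 (5 higher, 1 lower) in PFOS P8-14 against control. For the fibrillar chains it was -0.13 (3 higher, 7 lower) in PFOS P1-7 and 0.01 (6 higher, 4 lower) in PFOS P8-14, and for the SLRPs -0.44 (1 higher, 6 lower) in PFOS P1-7 and -0.11 (2 higher, 5 lower) in PFOS P8-14. For the other collagens it was -0.16 (8 higher, 15 lower) in PFOS P1-7 and -0.04 (9 higher, 14 lower) in PFOS P8-14. In PFOS P8-14 against PFOS P1-7 the median over the 46 genes was 0.10 (37 higher, 9 lower), beside -0.03.

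The genes that make, process, bind and degrade collagen were read from 6 lists, and in limma 0 of their tested members passed in any of the 3 comparisons. For PFOS P1-7 against control the median log2 difference was 0.02 for 19 folding and modification genes (11 higher, 8 lower), 0.29 for 12 processing and crosslinking genes (10 higher, 2 lower), 0.19 for 8 receptors (7 higher, 1 lower), 0.22 for 11 breakdown genes and inhibitors (9 higher, 2 lower), 0.19 for 15 laminins, nidogens and basement membrane proteoglycans (12 higher, 3 lower) and 0.46 for 7 other SLRPs (6 higher, 1 lower), beside 0.08 for all symbols. For PFOS P8-14 against control those medians were 0.04, 0.27, 0.16, 0.19, 0.21 and 0.19 in the same order, beside 0.06, and for PFOS P8-14 against PFOS P1-7 they lay between -0.08 and 0.03, beside -0.03. Each list held 1 or 2 genes that were higher in every high-Ttr library than in any other, where the background was 4.17% of all symbols tested. They were 1 of 19 folding genes, 2 of 12 processing genes (Pcolce and Pcolce2) and 2 of 8 receptors (Itga10 and Ddr1). The other lists gave 1 of 11 breakdown genes (Fap), 2 of 15 basement membrane genes (Lama5 and Nid2) and 1 of 7 other SLRPs (Prelp). The count of the folding genes is close to the background, and none of these counts was tested. With the choroid plexus score in the fit, an alternative chosen for these lists after seeing the data, the medians in PFOS P1-7 against control were 0.03, 0.16, 0.04, 0.13, 0.12 and 0.16 in the order above, beside 0.08 for all symbols. In PFOS P8-14 against control they were -0.01, 0.18, 0.10, 0.08, 0.17 and 0.05, beside 0.05. Each list held genes that split by Ttr, and a change in the differences of those genes with the score was fixed in advance. The part of choroid plexus content in these medians was not tested.

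The genes with the smallest p in those lists had these values. Tll1, a tolloid protease that trims procollagen ends, averaged 2.76 ± 0.16 TPM in PFOS P1-7 and 1.76 ± 0.42 TPM in control (SD, n = 3 each), giving a log2 difference of 0.45 (limma adjusted p = 0.223). Reck, a membrane inhibitor of matrix metalloproteinases, averaged 8.57 ± 1.64 TPM in PFOS P1-7, 8.63 ± 1.08 TPM in PFOS P8-14 and 6.28 ± 0.78 TPM in control (SD, n = 3 each), with log2 differences against control of 0.38 in PFOS P1-7 (limma adjusted p = 0.263) and 0.40 in PFOS P8-14 (limma adjusted p = 0.451). Lamb1, the laminin beta 1 chain, averaged 24.9 ± 1.72 TPM in PFOS P1-7, 25.9 ± 2.97 TPM in PFOS P8-14 and 19.4 ± 4.85 TPM in control (SD, n = 3 each), with log2 differences of 0.37 in PFOS P1-7 (limma adjusted p = 0.277) and 0.42 in PFOS P8-14 (limma adjusted p = 0.445). P4ha1, a prolyl hydroxylase subunit needed for a stable triple helix, was at 17.7, 20.2 and 21.6 TPM in PFOS P8-14 and 25.1, 23.8 and 24.6 TPM in control, without overlap (background 5.83%), giving a log2 difference of -0.30 (SE 0.10, limma adjusted p = 0.445). Itgb1, the beta subunit of the collagen-binding integrins, averaged 54.7 ± 6.02 TPM in PFOS P1-7, 52.3 ± 1.29 TPM in PFOS P8-14 and 46.9 ± 3.21 TPM in control (SD, n = 3 each), with log2 differences of 0.21 in PFOS P1-7 (limma adjusted p = 0.27) and 0.16 in PFOS P8-14 (limma adjusted p = 0.519). Chad, chondroadherin, was at 0.47, 0.09 and 0.60 TPM in PFOS P8-14 and 0.64, 0.79 and 1.36 TPM in PFOS P1-7, giving a log2 difference of -0.48 (SE 0.20, limma adjusted p = 1). The remaining ones against control were the prolyl hydroxylase P3h2 (listed as Leprel1) at a log2 difference of 0.48 in PFOS P1-7 (limma adjusted p = 0.266), and the procollagen protease Adamts3 at 0.34 and the SLRP Ecm2 at 0.62 in PFOS P8-14 (limma adjusted p = 0.471 and 0.505). With the choroid plexus score the Ecm2 difference was 0.29. In PFOS P8-14 against PFOS P1-7, the metalloproteinase inhibitor Timp2, the collagen receptor Ddr2 and the laminin chain Lama4 had log2 differences of 0.28, 0.16 and 0.23 (limma adjusted p = 1 each).

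Markers of vessel cells were read beside collagen IV. Cldn5, the tight-junction claudin of brain endothelium, was at 73.8, 97.8 and 87.2 TPM in PFOS P1-7, 95.2, 94.98 and 92.4 TPM in PFOS P8-14 and 120, 106 and 122 TPM in control, so that both PFOS groups lay below control without overlap. It was the 1 endothelial marker of 12 to do so in each comparison, where the background was 6.43% of all symbols in PFOS P1-7 and 5.83% in PFOS P8-14. Its log2 difference was -0.43 in PFOS P1-7 (limma adjusted p = 0.191) and -0.30 in PFOS P8-14 (limma adjusted p = 0.445). Over the 12 endothelial markers the median was 0.03 in PFOS P1-7 (7 higher, 5 lower) and 0.07 in PFOS P8-14 (8 higher, 4 lower) against control, and over 10 pericyte and smooth muscle markers 0.06 in PFOS P1-7 (5 higher, 5 lower) and 0.12 in PFOS P8-14 (6 higher, 4 lower). For all symbols tested it was 0.08 in PFOS P1-7 and 0.06 in PFOS P8-14. Pdgfrb, the pericyte receptor, was at 17.6, 16.5 and 16.1 TPM in PFOS P1-7, 21.7, 15.9 and 16.8 TPM in PFOS P8-14 and 18.7, 12.2 and 14.3 TPM in control. Higd1b, the pericyte marker with the smallest p against control, was at 3.76, 6.07 and 9.15 TPM in PFOS P1-7, 6.18, 5.73 and 5.19 TPM in PFOS P8-14 and 7.97, 11.4 and 9.5 TPM in control. Its log2 difference was -0.59 in PFOS P1-7 (limma adjusted p = 0.262) and -0.65 in PFOS P8-14 (limma adjusted p = 0.445), and in PFOS P8-14 it did not overlap control (background 5.83%).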

How the data were processed

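The authors deposited TPM (transcript abundance scaled to transcript length and library total) per gene symbol. RSEM 1.3.3, STAR 2.5.3a, fastp 0.21.0 and bcl2fastq are named in the submitters' processing notes, as is build mm10. Per the labels' protocols RNA came from RNeasy lipid tissue columns and libraries from a stranded mRNA kit. The gene annotation is not given in the sources used here.

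Symbols with at least 0.5 TPM in at least 3 libraries (15157) were fitted in R 4.3.3 with limma 3.58.1 on log2(TPM + 1), with 1 mean per group, all 9 libraries and a mean-variance trend. Two-sided p-values were adjusted by Benjamini-Hochberg over every symbol tested, at a threshold of 0.05. The median SE of a log2 difference was 0.135. Column totals were 999999 to 1000001, so depth is unknown. The fit was tested on simulated data. A choroid plexus score was a covariate in 1 alternative. Genes were named by level within each class, by the 5 smallest p per comparison and from a fixed list. The genes, lists and alternatives were chosen with earlier results of these data known. Class medians are descriptions without a test. Symbols, spans and promoters came from RefSeq (GRCm38.p6).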

Additional observations from a re-analysis of the deposited data

How the results depend on the processing

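Of the refits of the 15 named differences under 22 alternatives, 1 passed the threshold, Col25a1 in PFOS P8-14 against control without control library 1. Of the 12 class medians, 9 changed sign without 1 library, among them the fibrillar median in each comparison. Leaving out 1 library at a time, the number of the 46 genes called in PFOS P8-14 against control ranged over 0 to 1, and the SLRP median in PFOS P1-7 against control over -0.46 to 0.038. The number of all symbols called ranged over 0 to 2557 in PFOS P1-7 against control (2557 without control library 1), 0 to 1645 in PFOS P8-14 against control (1645 without that library) and 0 to 1 in PFOS P8-14 against PFOS P1-7. With array weights, 2710 and 881 symbols were called against control in PFOS P1-7 and PFOS P8-14, and 0 of the 46 genes. The cause was not tested. The replicate block called 0 of the 46 genes in each comparison, with smallest adjusted p over all symbols of 0.132, 0.249 and 1. Deviations of same-numbered libraries correlated at -0.45 to 0.509. With 3 libraries a group, those values cannot show whether same-numbered libraries share a litter or a date, which the labels do not give. With the length trend removed the median over the 46 genes was -0.13 in PFOS P1-7 and 0.01 in PFOS P8-14 against control, and Col25a1 was 0.09 and 0.23. Length there was the median over all GENCODE transcripts of a symbol, partial ones included. It was 428 bases for Col1a1 and 647 for Col4a1, and may be far from that of the main transcript, so this setting is a rough one for collagens. With 3 libraries a group, the median 95% interval reached 0.303 to either side on the log2 scale.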
